A study of Homo sapiens with 12 samples.

Results

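The genes studied here code for NF-kB subunits, for inhibitors that NF-kB induces and that act back on it, and for a pair of further targets, 10 of the 57736 genes in the count tables. They were chosen by gene name, with earlier results of these data known, and the counts of all regions listed under the gene ID of each were summed. They are the inhibitors NFKBIA, NFKBIE, NFKBIZ and TNFAIP3, the subunits RELA, RELB, NFKB1 and NFKB2, and the targets BIRC3 and TNFAIP2. They were measured in HepG2 cells, a human liver cancer line, and Ls174 cells, a human colon cancer line, each grown for 24 h with 0.7 mg/ml of an extract of the red seaweed Hypnea musciformis (HME) or without it as the control, a dose taken from the sample labels (the methods of the study give a slightly different concentration). Each of the 4 groups held 3 libraries from biological triplicates, 12 in all, and the comparisons address how the extract changed these transcripts in each line and whether the lines differed. Each line is a single established cell line in culture, and every group received the same culture time.

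NF-kB proteins are dimers of subunits that share a DNA-binding domain, and in resting cells most of them are held in the cytoplasm by inhibitors of the IkB class. A signal at a receptor activates the IkB kinase complex, which marks the inhibitor for degradation, and the freed dimer enters the nucleus and switches on its targets. Among those targets are the genes of its own inhibitors, above all NFKBIA and TNFAIP3, and of several subunits. Their transcripts can rise with the activity of the pathway, and those of the inhibitors rebuild its brakes. The activity of NF-kB itself was not measured here, and the study counted NFKBIA among the p53 targets that rose in HepG2 cells. In liver and colon epithelium the pathway is known for its part in inflammation, cell survival and the release of chemokines.

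RefSeq promoter windows (GRCh38.p14, 250 bases before to 50 after each transcription start) covered 8 members in 13 windows. The 10-letter NF-kB consensus, searched on both strands, occurred in at least 1 window of 6 of these 8 members, and in 13.3% of the 27305 genes with windows. By window it was found in 8 of 13, against 11.3% of all 35116 windows. Since the members were chosen as genes of NF-kB and its known targets, these shares are a description and not a test. The AP-1 motif TGANTCA was in none of the members' windows, against 7.71% of all windows. The windows of 3 members are shown, NFKBIA and TNFAIP3 because they had the lowest p values in HepG2 cells and TNFAIP2 because it had the lowest in Ls174 cells. They are written 5′ to 3′ on the strand of the gene, with matches to the NF-kB consensus in capitals.
NFKBIA (chr14:35404700-35404999, minus strand): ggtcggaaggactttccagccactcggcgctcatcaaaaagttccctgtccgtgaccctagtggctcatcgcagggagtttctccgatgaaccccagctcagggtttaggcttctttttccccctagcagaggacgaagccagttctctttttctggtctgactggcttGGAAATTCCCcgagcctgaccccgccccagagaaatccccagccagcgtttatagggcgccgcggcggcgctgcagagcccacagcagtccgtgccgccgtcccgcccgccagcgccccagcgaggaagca
TNFAIP3 (chr6:137867009-137867308, plus strand): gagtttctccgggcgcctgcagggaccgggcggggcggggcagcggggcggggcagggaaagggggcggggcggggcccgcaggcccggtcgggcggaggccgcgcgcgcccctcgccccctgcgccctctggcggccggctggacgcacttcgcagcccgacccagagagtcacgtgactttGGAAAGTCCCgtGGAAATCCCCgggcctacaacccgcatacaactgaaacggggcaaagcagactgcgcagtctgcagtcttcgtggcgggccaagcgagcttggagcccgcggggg
TNFAIP2 (chr14:103123211-103123510, plus strand): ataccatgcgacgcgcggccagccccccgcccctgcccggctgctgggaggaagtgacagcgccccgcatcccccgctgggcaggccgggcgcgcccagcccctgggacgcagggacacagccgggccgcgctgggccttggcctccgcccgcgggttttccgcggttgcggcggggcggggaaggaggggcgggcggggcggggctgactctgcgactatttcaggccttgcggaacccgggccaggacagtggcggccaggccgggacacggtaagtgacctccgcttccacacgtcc
The match in NFKBIA began 81 bases before the transcription start. TNFAIP3 held a pair of matches, beginning 67 and 55 bases before the start and separated by 2 bases. The TNFAIP2 window held no match, which says only that these letters are not in this window. Elsewhere the same consensus read GGGAATTTCC in NFKB1, 49 bases before the start, and GGAAATCCCC and GGAGTTCCCC in BIRC3, 199 and 135 bases before it. NFKBIZ held GGGAATTTCC in 1 window, 223 bases before the start, and GGGGTTTCCC in its other window, 239 bases before it. Of the 3 NFKB2 windows 2 held matches, 5 in all with a pair that overlap, and the nearest to a start was GGGACTTTCC, 21 bases before it. RELA had 2 windows and no match. A match describes the sequence and does not show that a factor was bound in these cells.

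The files hold reads from the 3′ ends of transcripts, so that a count does not grow with transcript length, and levels are given as CPM, counts scaled to library size with TMM factors. Total counts ranged from 1790841 to 3656662 per library, and 3 counts, taken as the floor of the measurement, correspond to 0.768 to 1.87 CPM. These floors cover counting error only. The cell lines matched their labels in part: the summed level of 8 liver markers was 12872 to 21447 CPM in HepG2 libraries and 0 to 127 CPM in Ls174 libraries, while the colon transcription factor gene CDX1 was at 76.8 to 207 CPM in Ls174 and at 0 to 0.808 CPM in HepG2 libraries. The colon markers CDX2, TFF3, LGALS4 and CDH17 were also higher in every Ls174 library than in any HepG2 library. MUC2 and KRT20 were near or at 0 in Ls174 cells, and CEACAM5 reached only 6.05 CPM there. VIL1 was not higher in Ls174 cells, at 42.3 to 79.2 CPM against 53.0 to 188 CPM in HepG2 libraries. HepG2 HME 2 carried 962 CPM over 7 mesenchymal markers against 3.76 to 10.9 CPM in the HepG2 controls. Nearly all of this was COL1A1 (551 CPM) and COL1A2 (408 CPM). The other markers reached at most 4.80 CPM in HepG2 HME libraries, with DCN at 0. Without HepG2 HME 2 the log2 fold change of NFKBIA in HepG2 cells was 2.62, against 2.58 with it. Both the number of cells and the RNA per cell could change a bulk level, and they cannot be told apart. A pair of control libraries lay apart from the others of their line, HepG2 control 2 (mean Pearson r of log2 CPM with the other libraries of the line 0.778, against 0.875 to 0.887) and Ls174 control 1 (0.820, against 0.923 to 0.929). Ls174 control 1 also had the fewest genes with a count, 13885, and 6 of the 10 members were at 0 counts in it. Where leaving out 1 of these libraries changed a call within a line or between the untreated lines for a gene named here, the value without it is given beside the result.

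Most of the reads of each member came from the end of its last exon. NFKBIA (ENSG00000100906) was counted mainly in 1 region of the 3′ UTR (chr14:35870520-35871266, GRCh37, as the files give it), which held 96.4% of its counts. A coding region (chr14:35871451-35871869) held a further 3.55%. The 3′ UTR region took 96.4% of the NFKBIA counts in HepG2 cells without HME and 96.0% with it. The same shares in Ls174 cells were 97.7% and 98.6%. In RELB (ENSG00000104856) the last region (chr19:45541049-45541649) took 88.8%. In NFKB2 (ENSG00000077150) the last region took 64.0%, with the remainder spread over coding exons, and that region overlaps a region listed for PSD on the other strand. How the counting treated strand is not given in the sources used here, so the NFKB2 values are uncertain. In NFKBIE, NFKBIZ, TNFAIP3, NFKB1, RELA, BIRC3 and TNFAIP2 a single region took 98.3% or more. No region of a member was also listed under another gene.

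NFKBIA codes for IkB alpha, the inhibitor that NF-kB dimers induce most quickly and that carries them back out of the nucleus. In HepG2 cells its levels in replicates 1, 2 and 3 were 245, 67.9 and 217 CPM in the controls and 1052, 994 and 1046 CPM with HME. All treated libraries lay above every control, and the treated libraries were close to one another (1030 ± 31.7 CPM, SD, n = 3) while the controls were spread (177 ± 95.2, SD, n = 3). The log2 fold change was 2.58 (SE 0.45), which corresponds to 5.97-fold, and edgeR's quasi-likelihood test gave a Benjamini-Hochberg adjusted p of 0.0165 over all 11343 genes tested. The spread of the controls came from control 2, which was also the library that lay apart. Without it the log2 fold change was 2.23 and the adjusted p = 0.000947. Leaving out control 3 or any 1 of the HME libraries kept the log2 fold change between 2.58 and 2.74 and took the adjusted p above 0.05, with the highest at 0.0758 in those 4 fits.

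The NFKBIA levels in Ls174 cells were 10.3, 66.7 and 70.7 CPM in the controls and 132, 114 and 122 CPM with HME, and again the groups did not overlap. The log2 fold change was 1.30 (SE 0.53), which did not pass the adjustment in edgeR's quasi-likelihood test (adjusted p = 0.342). The low control was replicate 1, the library that lay apart. Without it the log2 fold change was smaller, 0.84, and the adjusted p was 0.00424. With genes of few counts kept in the fit it was 0.000294. In the other alternatives run on these counts the adjusted p stayed above 0.05, and the log2 fold change was positive in all of them. The plot of NFKBIA under each setting shows both lines.

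**Figure D1:**
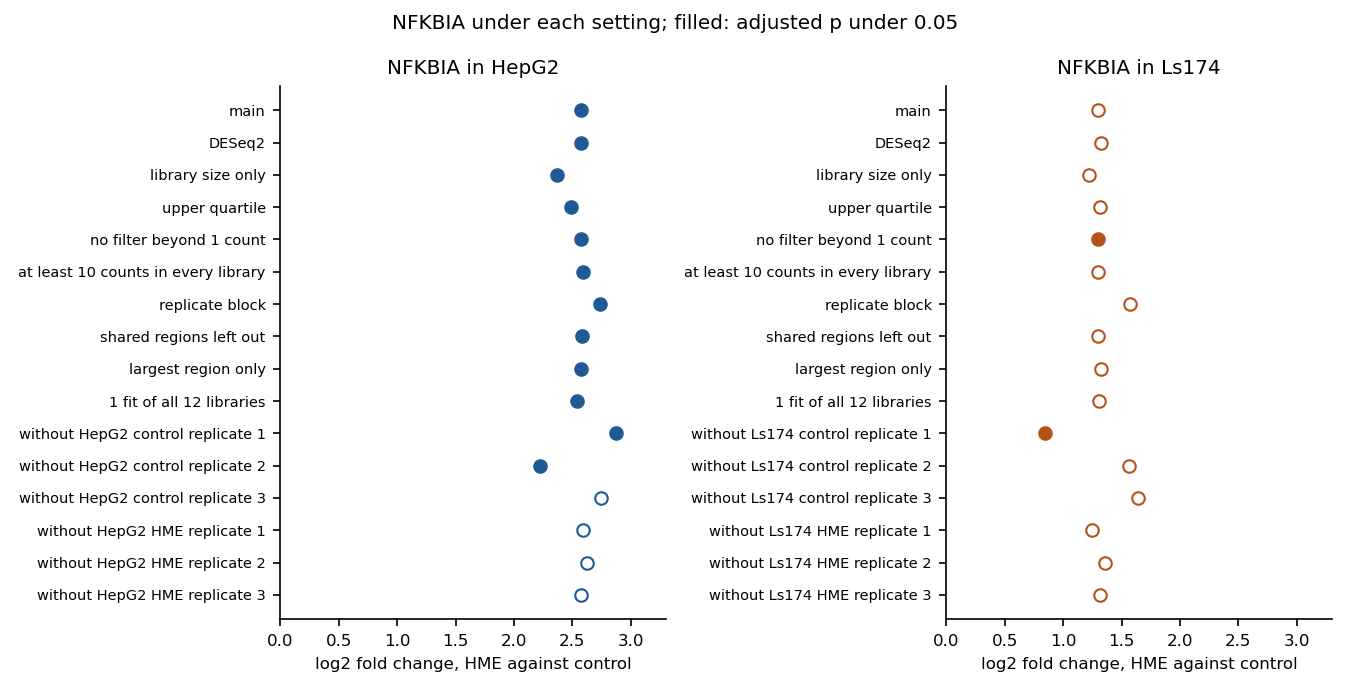
Log2 fold change of NFKBIA, HME against control, on the x axis, for each setting of the fit on the y axis, in HepG2 (left) and Ls174 (right). Filled points have an adjusted p under 0.05. In HepG2 every value lies between 2.23 and 2.88, and in Ls174 the lowest value, 0.84, is that without control 1 and is 1 of the 2 filled points.

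TNFAIP3 codes for A20, a ubiquitin-editing enzyme that switches off signalling upstream of the IkB kinase. In HepG2 cells it was measured at 19.1, 21.2 and 20.2 CPM in the controls and at 47.5, 39.9 and 47.4 CPM with HME. The groups did not overlap, and the controls were close together (20.2 ± 1.05 CPM, SD, n = 3), control 2 included. The log2 fold change was 1.17 (SE 0.29), 2.25-fold, with an adjusted p of 0.0634 from edgeR's quasi-likelihood test, short of the threshold. DESeq2 gave an adjusted p of 0.0217, and edgeR without control 2 gave 0.0172. These were the only 2 of 15 alternatives under 0.05, and the highest adjusted p in edgeR was 0.221. In Ls174 cells TNFAIP3 was almost silent, with 0, 3 and 8 counts in the controls and 6, 3 and 4 counts with HME, too few to be tested.

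NFKBIE codes for IkB epsilon, a slower inhibitor that binds RELA and REL dimers. Its levels in HepG2 cells were 9.68, 29.9 and 17.0 CPM in the controls and 38.0, 30.4 and 21.6 CPM with HME, with overlapping groups (log2 fold change 0.70, SE 0.46, adjusted p = 0.397, edgeR). Its highest control was again replicate 2. Without that library the log2 fold change was 1.27 with an adjusted p of 0.0627. In Ls174 cells NFKBIE was at 25.6, 7.14 and 4.35 CPM in the controls and at 6.19, 8.89 and 4.93 CPM with HME, and the high control was replicate 1. The log2 fold change there, -0.85 (SE 0.67, adjusted p = 0.602, edgeR), turned to 0.23 without it. NFKBIZ codes for the nuclear protein IkB zeta, which acts with NF-kB on a later set of genes. It was at 14.8, 8.72 and 12.1 CPM in HepG2 controls and at 15.04, 10.6 and 12.01 CPM with HME, levels that overlapped throughout (log2 fold change 0.08, SE 0.36). Ls174 libraries held 0, 12 and 15 counts in the controls and 6, 8 and 10 counts with HME, and it was not tested there.

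**Figure D2:**
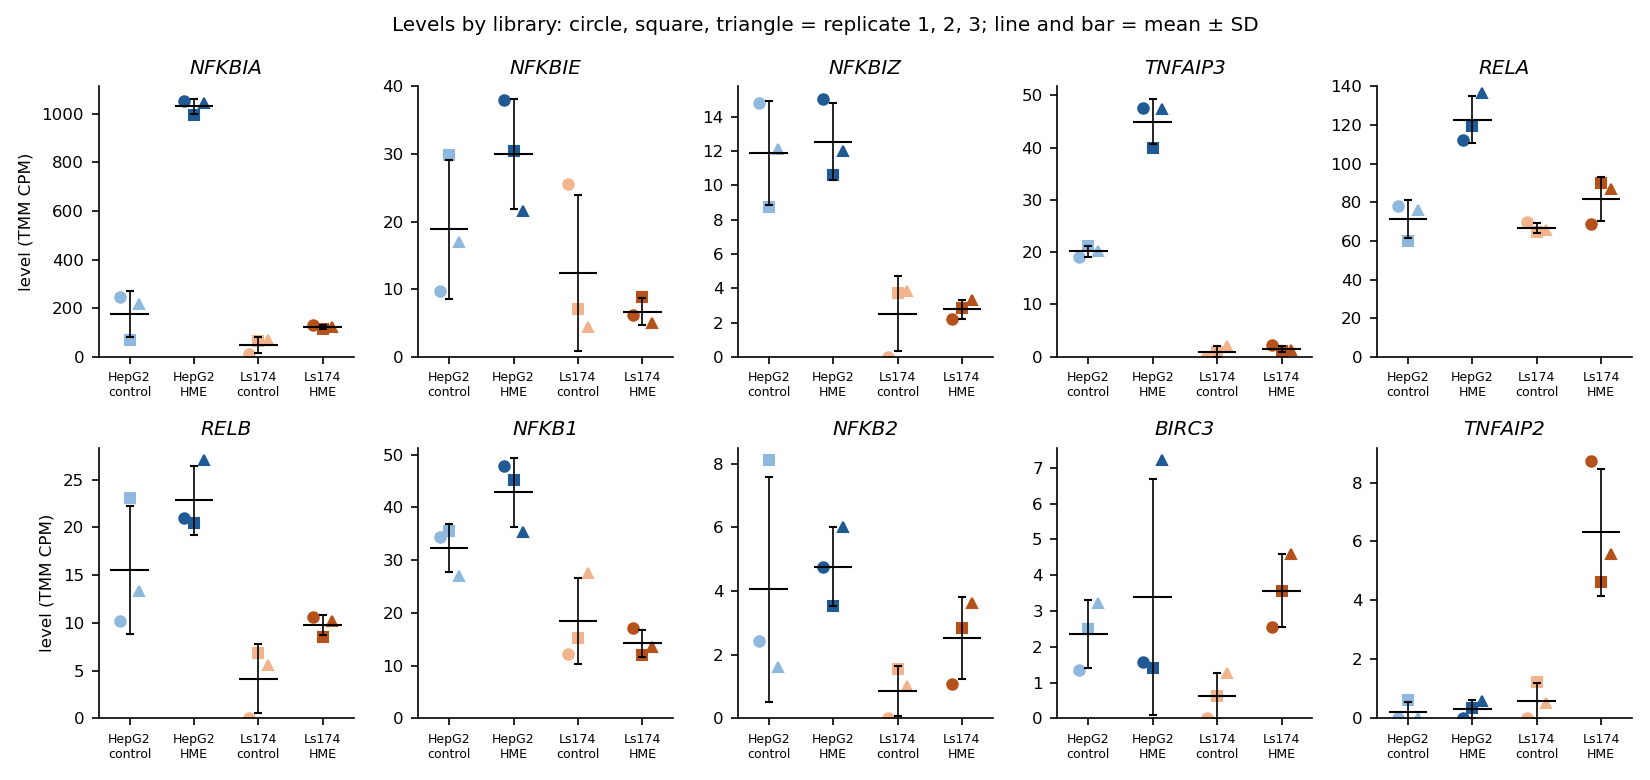
Level of each member in TMM CPM (y axis, from 0, its own scale in each panel) in each of the 12 libraries, by group (x axis), with symbols for replicates 1, 2 and 3 and a line and bar for the mean ± SD. NFKBIA and TNFAIP3 in HepG2 sit above every control with HME, TNFAIP3 and NFKBIZ are low in Ls174, and TNFAIP2 rises above 4 CPM only in HME-treated Ls174 libraries.

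Among the subunits, RELA codes for p65, the subunit with the activation domain in the most common dimer. In HepG2 cells it was at 78.0, 59.8 and 76.0 CPM in the controls and at 112, 119 and 136 CPM with HME, with no overlap. The log2 fold change was 0.80 (SE 0.29), 1.74-fold, and the adjusted p from edgeR's quasi-likelihood test was 0.149. In Ls174 cells the levels were 69.8, 64.6 and 65.5 CPM in the controls and 68.9, 90.0 and 86.7 CPM with HME, where HME 1 lay among the controls (log2 fold change 0.29, SE 0.19, adjusted p = 0.538). NFKB1 codes for p105, the precursor of p50, the usual partner of p65. It was at 34.4, 35.5 and 27.1 CPM in HepG2 controls and at 47.9, 45.2 and 35.4 CPM with HME, where HME 3 lay just under the highest control (log2 fold change 0.42, SE 0.30, adjusted p = 0.441). Its Ls174 levels were 12.3, 15.2 and 27.7 CPM in the controls and 17.1, 12.1 and 13.5 CPM with HME (log2 fold change -0.39, SE 0.36, adjusted p = 0.66).

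RELB and NFKB2, whose products p52 and RELB form the dimer of the non-canonical branch, were by group mean the scarcer subunit transcripts among the members. RELB was at 10.2, 23.0 and 13.3 CPM in HepG2 controls and at 21.0, 20.5 and 27.0 CPM with HME, and control 2 lay above a pair of the treated libraries (log2 fold change 0.57, SE 0.40, adjusted p = 0.427, edgeR). The Ls174 levels were 0, 6.83 and 5.63 CPM in the controls and 10.6, 8.53 and 10.2 CPM with HME, with no overlap (log2 fold change 1.15, SE 0.76, adjusted p = 0.536). NFKB2 had 9, 13 and 4 counts in HepG2 controls and 12, 10 and 10 counts with HME (log2 fold change 0.32, SE 0.67). In Ls174 cells it had 0, 5 and 4 counts in the controls and 3, 8 and 11 counts with HME and was not tested.

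The make-up of the subunit pool was compared by the counts of the 5 subunit genes, REL included, as a percentage of their sum in each library. REL codes for c-Rel, the remaining subunit. RELA took the largest share in every group, 50.8 ± 8.51% without and 53.9 ± 0.684% with HME in HepG2 cells and 63.0 ± 5.71% without and 70.3 ± 2.84% with HME in Ls174 cells (SD, n = 3 each). The difference between treated and control means was within the SD of the controls in HepG2. The share of NFKB1 was 22.9 ± 2.05% and 19.1 ± 4.44% in HepG2 cells without and with HME, and 17.4 ± 7.38% and 12.5 ± 3.71% in Ls174 cells. RELB took 11.03 ± 4.55% and 10.0 ± 0.840% in HepG2 cells without and with HME. The RELB share in Ls174 cells was 4.16 ± 3.77% and 8.51 ± 1.71%. REL took 12.4 ± 2.19% and 14.9 ± 3.40% in HepG2 cells and 14.6 ± 13.3% and 6.64 ± 1.79% in Ls174 cells, where the wide SD of the controls came with a high share in control 1. NFKB2 stayed between 0.868% and 2.83% as a group mean.

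**Figure D3:**
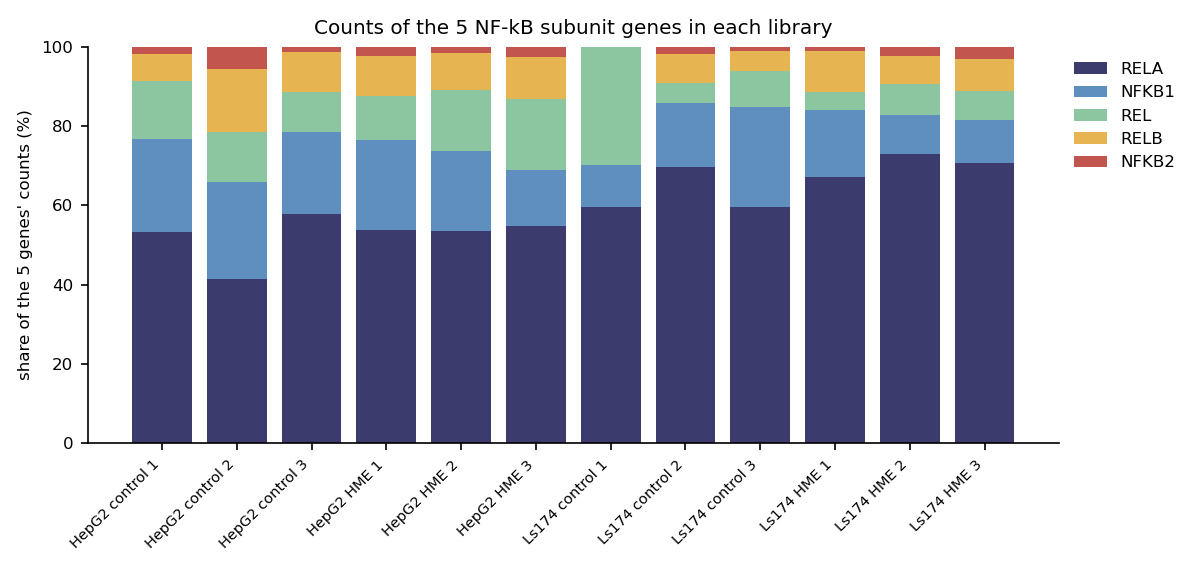
Share of each of the 5 subunit genes in their summed counts, in percent (y axis), for each of the 12 libraries (x axis). RELA is the largest part of every bar, and Ls174 control 1 holds no RELB and NFKB2.

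NFKBIA was also compared with RELA within each library. There were 2.38 ± 1.09 NFKBIA counts for each RELA count in HepG2 control libraries and 8.45 ± 0.852 with HME, and 0.753 ± 0.525 and 1.53 ± 0.340 in Ls174 libraries without and with HME (SD, n = 3 each). In the plot of levels by library, NFKBIA was the highest of the 10 members by group mean in all groups but the Ls174 controls, where RELA (66.6 ± 2.80 CPM) was above it (49.2 ± 33.8 CPM) with overlapping libraries. In HepG2 cells with HME, NFKBIA and then RELA stood above all other members in every library, followed by TNFAIP3, NFKB1, NFKBIE and RELB, neighbours whose libraries overlapped.

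The targets BIRC3 and TNFAIP2 were near the floor in HepG2 cells. BIRC3 codes for cIAP2, a ubiquitin ligase at the TNF receptor complex that also restrains the non-canonical branch. It had 5, 4 and 8 counts in HepG2 controls and 4, 4 and 12 counts with HME. In Ls174 cells it had 0, 2 and 5 counts in the controls and 7, 10 and 14 counts with HME, groups that did not overlap but were too low to be tested. TNFAIP2 is a gene named for its induction by TNF. It had at most 1 count in any HepG2 library, so no fold is given there. In Ls174 cells it had 0, 4 and 2 counts in the controls and 24, 13 and 17 counts with HME, which gave 0.585 ± 0.624 and 6.32 ± 2.16 CPM (SD, n = 3). With under 10 counts in every control library, TNFAIP2 passed the filter on low counts only through its HME libraries. A gene that enters in this way is bound to show a rise, so its fold and p values are given as a description only. The log2 fold change was 3.22 (SE 0.75), with an adjusted p of 0.101 from edgeR's quasi-likelihood test. DESeq2 gave an adjusted p of 0.0113 and edgeR without control 1 gave 0.00875. Only 3 of 14 alternatives were under 0.05, and the highest adjusted p in edgeR was 0.422. With so few counts in the controls the size of this change is poorly known.

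Counted together, 8 members were tested in HepG2 cells and all 8 had a positive log2 fold change, with a median of 0.64 against -0.04 over all genes tested. Since the members were chosen with earlier results of these data known, these counts and shares are a description and not a test of the group. NFKBIA was the 1 member called at an adjusted p under 0.05, where 2.77% of the genes tested were called higher. At the thresholds of the study (a log2 fold change of more than 0.58 in size with an unadjusted p below 0.05), NFKBIA, TNFAIP3 and RELA were higher and none was lower, 3 of 8, where 11.3% of the genes tested were higher. The same 3 members were those whose treated libraries all lay above every control, which held for 15.5% of the genes tested. In Ls174 cells 6 members were tested. TNFAIP2 had under 10 counts in every control library and passed the filter on low counts only through its HME libraries, so nothing is read from a count that includes it, and of the other 5 members 3 had a positive log2 fold change. None of the 6 was called at an adjusted p under 0.05 by edgeR, where 0.318% of the genes tested were called higher. Among the other 5, NFKBIA alone had an unadjusted p under 0.05, and DESeq2 called none. At the study thresholds 1 of the other 5, NFKBIA, was higher, where 4.11% of the genes tested were, and TNFAIP2 passed them too. Of the other 5, NFKBIA and RELB had treated libraries that all lay above every control, which held for 11.6% of the genes tested.

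**Figure D4:**
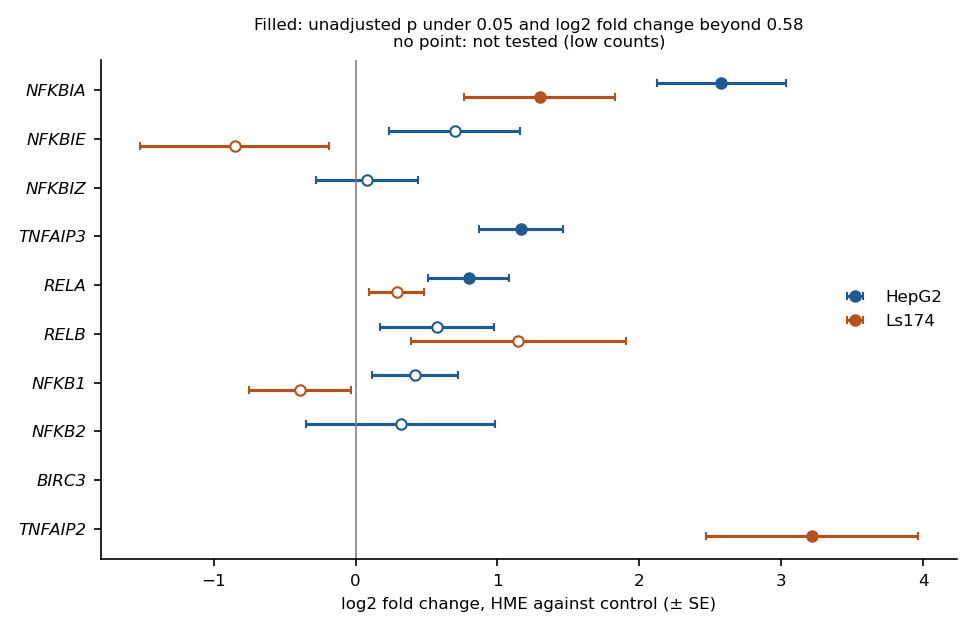
Log2 fold change, HME against control, with its SE (x axis), for each member (y axis) in HepG2 and Ls174. Filled points pass the study thresholds, and members with too few counts have no point: NFKBIA, TNFAIP3 and RELA are filled in HepG2, NFKBIA and TNFAIP2 in Ls174.

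The interaction term of a fit over all 12 libraries tested whether the response to HME differed between the lines. None of the 10 members was called, where 0.644% of the 13040 genes tested were called in either direction, none had an unadjusted p under 0.05, and DESeq2 called none. For NFKBIA the log2 fold change in Ls174 was lower than that in HepG2 by an estimated -1.24 (SE 0.76, adjusted p = 0.523, edgeR), an error too wide to tell the responses apart. Without both control libraries that lay apart, a choice made after seeing the data, the difference was -1.30 with an adjusted p of 0.0184. For RELA the difference was -0.48 (SE 0.33) and for NFKB1 -0.80 (SE 0.46). That for RELB was 0.55 (SE 0.83), with RELB at 0 in Ls174 control 1. The estimate for TNFAIP3 was -0.77 (SE 0.77), and -1.17 to 0.22 when each library was left out. Since TNFAIP2 was at the floor in HepG2 cells and TNFAIP3 had too few counts to be tested in Ls174 cells, their interactions have no usable size.

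Between the untreated lines 1 of the 7 members tested was called. This was TNFAIP3, at 20.2 ± 1.05 CPM in HepG2 and 0.993 ± 1.03 CPM in Ls174 controls (log2 difference -4.16, SE 0.72, adjusted p = 0.00265, edgeR), where 14.2% of the genes tested were called lower in Ls174. With under 10 counts in every Ls174 control it passed the filter only through the HepG2 libraries, and the size of its difference is poorly known (-5.15 without Ls174 control 3). Of the other 6 members 2 were lower at the study thresholds, NFKBIA (-1.85, SE 0.70) and NFKBIZ (-2.17, SE 0.80), where 19.5% of the genes tested were lower. NFKBIA and NFKBIZ had adjusted p values of 0.0906 and 0.0845 in edgeR and of 0.0294 and 0.0157 in DESeq2. In edgeR that of NFKBIA was 0.0382 without HepG2 control 2 and that of NFKBIZ 0.0302 without Ls174 control 1, and without both control libraries that lay apart those of NFKBIA and NFKBIZ were 3.57e-05 and 0.00285. Over all alternatives, 5 of 16 were under 0.05 for NFKBIA and 5 of 15 for NFKBIZ. RELA had a log2 difference of -0.13 (SE 0.29, adjusted p = 0.795), with libraries of the lines overlapping. The line and everything else that differed between the cultures cannot be told apart here.

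The other genes of the pathway were taken as 72 genes in 5 lists. These lists too were chosen with earlier results of these data known, so their counts beside the shares over all genes are only descriptive. Among 18 genes of receptors and adaptors, none was called in either line by edgeR at an adjusted p under 0.05. At the study thresholds 6 of 14 tested were higher in HepG2 cells, where 11.3% of all genes tested were higher, and none was lower. In Ls174 cells 1 of 15 was lower, where 7.85% of all genes tested were lower. Among 10 kinase genes IKBKG alone was called, in HepG2 cells, 1 of 9 tested where 2.77% of all genes were called higher. IKBKG codes for NEMO, the scaffold of the IkB kinase complex. Its levels were 53.2, 61.7 and 74.8 CPM in HepG2 controls and 208, 160 and 240 CPM with HME (log2 fold change 1.69, SE 0.32, adjusted p = 0.0213, and 0.00761 to 0.123 when each library was left out), and in Ls174 cells they were 39.3, 33.8 and 26.4 CPM in the controls and 34.6, 27.0 and 28.9 CPM with HME. The HepG2 call of IKBKG held in 10 of 15 alternatives, and among the fits with 1 library left out only in that without control 2. A near-identical pseudogene, IKBKGP1, shares sequence with IKBKG and was listed with at most 5 counts in a library, so the level of IKBKG is uncertain. In Ls174 cells no kinase gene was called, and 1 was higher and 1 lower of 9 tested at the study thresholds, close to the shares over all genes (4.11% and 7.85%). Among 13 genes of ubiquitin editing none was called in either line. At the study thresholds 3 were higher and 2 lower of 12 tested in HepG2 cells, and 2 were higher and 1 lower of 12 tested in Ls174 cells. Over all genes tested 11.3% were higher and 10.9% lower in HepG2 cells, and 4.11% and 7.85% in Ls174 cells.

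Of the 7 other family members, none was called by edgeR at an adjusted p under 0.05. In HepG2 cells 3 of 7 passed the study thresholds, all higher, where 11.3% of all genes tested were higher. BCL3, an atypical IkB protein that works with p50 and p52 in the nucleus, went from 9.08 ± 4.09 to 28.9 ± 7.55 CPM (SD, n = 3, log2 fold change 1.66, SE 0.41, adjusted p = 0.059). REL went from 17.5 ± 3.98 to 34.3 ± 10.6 CPM (0.97, SE 0.37, adjusted p = 0.168). NKIRAS1, a small GTPase-like inhibitor of the pathway, went from 3.796 ± 3.06 to 16.6 ± 3.44 CPM (2.02, SE 0.56, adjusted p = 0.0808). BCL3 and NKIRAS1 each passed the adjustment in 4 of 14 alternatives, and their highest adjusted p values in edgeR were 0.205 and 0.242. Those under 0.05 were 0.0102 and 0.0134 in DESeq2, 0.00624 and 0.00448 in edgeR with no filter beyond 1 count, 0.0478 and 0.0294 in 1 edgeR fit of all 12 libraries, and 0.031 and 0.0375 in edgeR without control 2. In Ls174 cells none of the 5 tested passed either threshold, and REL was at 34.9, 4.66 and 9.98 CPM in the controls and at 4.74, 9.96 and 8.87 CPM with HME.

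In the list of other targets, which holds chemokines, adhesion and survival genes, 3 of 10 tested were called in HepG2 cells, all higher, where 2.77% of all genes tested were called higher. The early response gene IER3 was at 82.5, 53.6 and 80.4 CPM in the controls and at 3086, 3539 and 3764 CPM with HME (log2 fold change 5.60, SE 0.38, adjusted p = 0.00062). IL8 (CXCL8), a chemokine for neutrophils, was at 3.91 ± 2.26 and 71.7 ± 14.2 CPM (4.22, SE 0.46, adjusted p = 0.00208), and the chemokine CCL20 was at 43.5 ± 36.6 and 779 ± 385 CPM (4.18, SE 0.67, adjusted p = 0.0112, SD, n = 3). Of these 3 calls, that of CCL20 was lost without control 3 (adjusted p = 0.0526) or HME 3 (0.0542), and without control 1 its log2 fold change was 5.09. In Ls174 cells 6 genes were called, all higher. Of 13 tested, CCL20, CXCL1, IL8 and LTB had under 10 counts in every control and passed the filter only through HME libraries. Of the other 9 tested 3 were called, where 0.318% of all genes tested were called higher. The 6 called genes were CCL20, the neutrophil chemokines CXCL1, CXCL2, CXCL3 and IL8, and IER3, the last from 148, 331 and 326 CPM to 1048, 860 and 850 CPM (1.77, SE 0.31, adjusted p = 0.0392). CXCL3 went from 8.78 ± 1.95 to 34.5 ± 1.78 CPM (1.95, SE 0.27, adjusted p = 0.0274) and IL8 from 1.56 ± 0.554 to 12.4 ± 5.01 CPM (2.97, SE 0.53, adjusted p = 0.0392). All 6 Ls174 calls were lost when any 1 HME library was left out, with adjusted p values between 0.085 and 0.274, and 5 and 4 of them without control 2 and control 3, while all 6 stayed called without control 1 (highest adjusted p = 0.000984). The log2 fold change of CCL20 there, 7.07, was 8.99 without control 3. CXCL1 and CXCL3 had at most 5 counts in any HepG2 library, with or without HME. The genes TNF, IL6, CCL2, PTGS2 and CSF2, 5 of the 24, had 0 counts in all 12 libraries, which allows up to 1.87 CPM in the library with the highest floor.

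**Figure D5:**
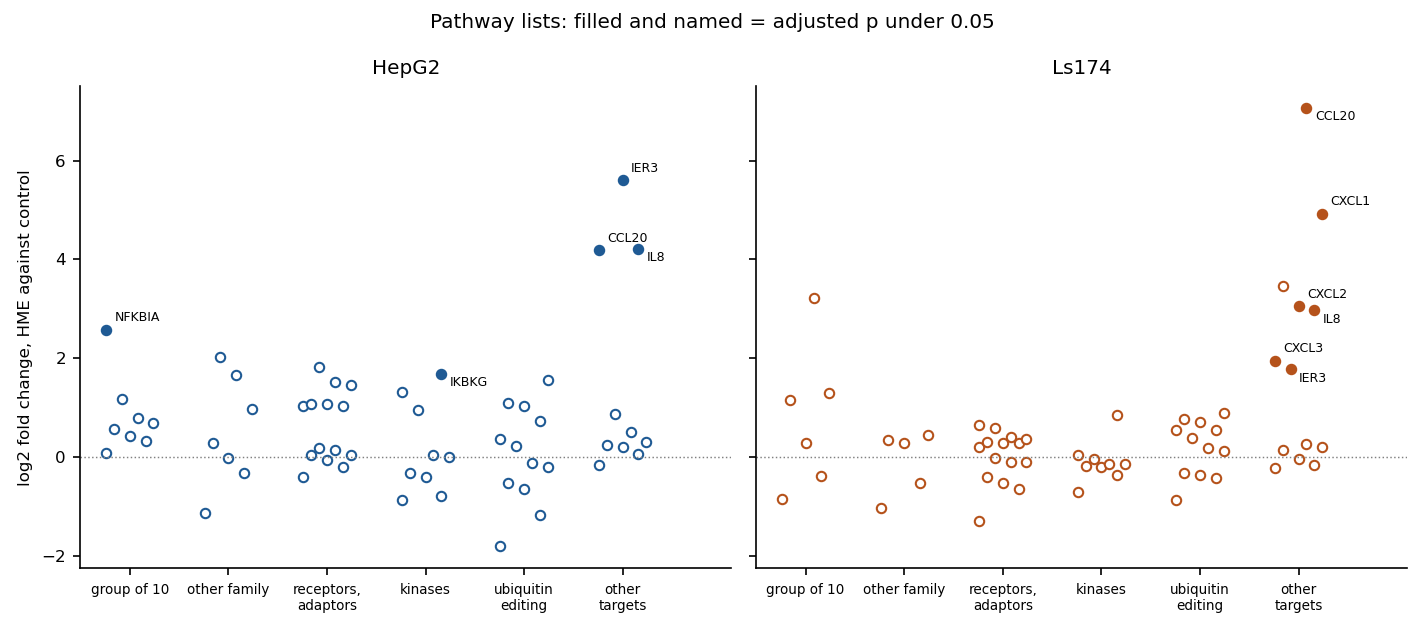
Log2 fold change, HME against control (y axis), of each tested gene in the group of 10 and in the 5 pathway lists (x axis), in HepG2 (left) and Ls174 (right). Filled and named points have an adjusted p under 0.05: NFKBIA, IKBKG, CCL20, IER3 and IL8 in HepG2, and 6 genes of the list of other targets in Ls174.

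The genes whose pattern was most like that of NFKBIA over the 12 libraries, after the mean of each line was subtracted from log2 CPM, were OSBPL9 (Pearson r = 0.988), ARG2 (0.982) and DNAJB4 (0.980), of 9866 genes tested in both lines. For TNFAIP2 they were SWSAP1 (0.913), RAP1GAP (0.909) and ARMCX3 (0.888). TNFAIP2 had at most 4 counts in any library outside the Ls174 HME group, so its likeness to these genes rests largely on that group. These values describe a likeness across libraries that share a line, a treatment and, for the controls that lay apart, a low similarity to the others.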

How the data were processed

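Reads came from 3′ mRNA libraries (QuantSeq) of the 12 cultures sequenced on an Ion Proton instrument. The submitters' processing notes name Trimmomatic, HISAT2, Bowtie2 and the build hg19 (GRCh37), and the deposited files hold the authors' raw counts for each 3′ region, not normalized. The treatment of strand and of reads with several alignments is not given in the sources used here. Counts of all regions of a gene ID were summed for 57736 genes, and regions were annotated with the GENCODE annotation lifted to GRCh37. Each comparison was fitted on its own libraries, with no covariate, by the two-sided quasi-likelihood F test of edgeR 4.0.16 in R 4.3.3, after TMM scaling and filterByExpr, and p values were adjusted by Benjamini-Hochberg over every gene tested. Genes were called at an adjusted p under 0.05, and beside it at the study's thresholds. Each SE is the log2 fold change divided by the square root of F. Levels are CPM with TMM factors of all 12 libraries. The alternatives were DESeq2 1.42.0, other scalings and filters, the replicate number as a block, other sets of regions, 1 fit of all libraries and leaving out each library. The procedure was tested on simulated data. Tables and figures used Python 3.11.15, pandas 2.3.3 and matplotlib 3.10.9.

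The members and the pathway lists were chosen with earlier results of these data known. The genes named are the members, list genes called in a test of HME, genes of the list of other family members, and the 3 genes most like the member with the lowest p in each line, by Pearson correlation of log2 CPM (prior count 2). PSD and IKBKGP1 are named because a value rests on them. Marker lists of liver, colon, mesenchymal, blood and endothelial cells were used to check the cultures. The summed blood markers reached 564 CPM in HepG2 libraries, with PTPRC, CD3E and HBB at 0, and 4.86 CPM in Ls174 libraries. The HepG2 sum was nearly all LYZ, at up to 552 CPM. The summed endothelial markers reached 4.36 CPM in HepG2 and were at 0 in Ls174 libraries. The summed colon markers were 69.8 to 209 CPM in HepG2 and 383 to 475 CPM in Ls174 libraries.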

Additional observations from a re-analysis of the deposited data

Results flagged for a closer look

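Among the members and the pathway lists, 2 genes outside the group of 10 were called in the interaction of cell line and HME. For IER3, which rose in both lines, the log2 fold change in Ls174 was lower than that in HepG2, with a difference of -3.80 (SE 0.48, adjusted p = 0.00143, edgeR). The adjusted p lay between 0.000295 and 0.0145 when each library was left out in turn. For IKBKG the difference was -1.81 (SE 0.38, adjusted p = 0.0447, edgeR). This call depends on the setting, with an adjusted p under 0.05 in 6 of 21 alternatives. The adjusted p in edgeR was 0.0411 to 0.176 when each library was left out, under 0.05 only without HepG2 control 2, and 0.0548 without Ls174 control 1. The near-identical pseudogene is a further limit on its level. None of the 10 members was called in this term by the main fit, which does not show that the lines responded alike.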

How the results depend on the processing

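The count of members called in HepG2 cells was 1 in the main fit, 3 at the study thresholds and 2 with DESeq2, and 0 to 2 when each library was left out in turn. In Ls174 cells it was 0, against 2 at the study thresholds, 1 with DESeq2, 2 with no filter beyond 1 count, and 0 to 2 when each library was left out. TNFAIP2, which passed the filter only through its HME libraries, is in the count at the study thresholds and is the member called by DESeq2. The interaction called 0 members, and 1 (NFKBIA) without both control libraries that lay apart. Between the control lines 1 member was called, against 3 at the study thresholds and with DESeq2, 4 with no filter, in 1 fit of all 12 libraries and without both control libraries that lay apart, 0 with at least 10 counts in every library, which left 4 members tested, and 1 to 2 when each library was left out. The other settings gave the counts of the main fit. Some estimates changed sign, none of which was called in the main fit. In HepG2 cells NFKBIZ was at -0.086 with library sizes alone and at -0.049 to 0.26 over the left-out libraries, and NFKB2 at -0.083 to 1.23. In Ls174 cells, over the left-out libraries, NFKBIE ran from -1.28 to 0.23, NFKB1 from -0.60 to 0.034, IKBKG from -0.28 to 0.014 and REL from -1.49 to 0.090. In the interaction NFKBIZ was at 0.050 with library sizes alone, 0.051 with upper quartiles and 0.20 with the block, and at -0.49 to 0.34 over the left-out libraries. There TNFAIP3 ran from -1.17 to 0.22 and CXCL2 from -1.58 to 0.87, and without both control libraries that lay apart NFKB2 was at -0.16, RELB at -0.28 and TNFAIP2 at -0.10. Between the controls RELA was at 0.068 with library sizes alone. The cause of these shifts was not tested. Levels under the floor of 3 counts, 0.768 to 1.87 CPM by library, could not be told from 0.

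The replicate numbers gave no sign of pairing the libraries within a line, which a check on 3 libraries per group cannot exclude. Deviations of same-numbered libraries from their group means correlated at -0.167, 0.0884 and -0.124 in HepG2 and at -0.0363, -0.00777 and -0.0541 in Ls174 cells. For libraries with different numbers the values ran from -0.200 to 0.307 in HepG2 and from -0.101 to 0.0923 in Ls174 cells. With the replicate number as a block, 1 member was called in HepG2, 0 in Ls174, 0 in the interaction and 1 between the controls, and over all genes 349 were called in HepG2 and 0 in Ls174 cells, against 314 higher and 61 lower and 36 higher and 98 lower without it. The block ended the call of all 6 other targets in Ls174 cells (adjusted p 0.124 to 0.17) and that of IKBKG in the interaction (0.171), and no other call of a named gene.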
